A study of Homo sapiens with 12 samples.

Results

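The replication-dependent histone genes encode the H1, H2A, H2B, H3 and H4 proteins that package newly copied DNA, and 36 of them could be followed one by one among the 22411 genes measured. They were taken by name, as symbols beginning with HIST1H, HIST2H, HIST3H or HIST4H or their present forms (H1-1 to H1-6, H2AC, H2BC, H3C and H4C with a number), from probe sets annotated with a single gene. H3-4 and the pseudogene H2BP1 entered by their older symbols HIST3H3 and HIST2H2BA. RNA came from SW1990 and PANC-1, both established human pancreatic ductal adenocarcinoma lines, and was hybridised to 12 expression arrays in 4 groups of 3. Per the labels, a GLI1 cDNA plasmid or the empty plasmid was delivered with a lipid reagent, which gave SW1990 GLI1 and SW1990 control, and PANC-1 GLI1 and PANC-1 control. Both plasmid groups of a line therefore share the transfection itself, and no untransfected cells are among the arrays.

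The transfected gene ran against its labels in these arrays. GLI1, the Hedgehog transcription factor carried by the plasmid, had normalized log2 values of 7.00, 6.90 and 6.77 in the SW1990 arrays labelled GLI1 and of 11.82, 11.84 and 11.76 in those labelled control. In PANC-1 it had 7.76 to 8.04 in the 3 arrays labelled GLI1 and 11.50, 11.54 and 11.46 in those labelled control. It was thus lower where the label names it (log2 difference -4.92, adjusted p = 5.17e-11 in SW1990, and -3.57, adjusted p = 1.76e-09 in PANC-1, from limma), and every direction given below is that of the arrays labelled GLI1 against the arrays labelled control. Whether the labels are exchanged, or whether this probe set does not read the transcript of the plasmid, was not tested. In PANC-1 the control array S8 stood apart over all genes, its values differing from those of S10 and S11 with an SD of 0.341 and 0.329, while S10 and S11 differed from each other with an SD of 0.153. The epithelial keratin genes KRT8 and KRT18 stood between 10.46 and 12.55 in all 12 arrays, while PTPRC, the pan-leukocyte marker, stood between 3.40 and 3.50. EPCAM, another epithelial marker, stood between 6.45 and 7.53 in PANC-1 and between 10.76 and 10.90 in SW1990. Of 5 epithelial markers listed (KRT7, KRT8, KRT18, KRT19 and EPCAM), 4 were lower in PANC-1 than in SW1990 under the control label and 3 under the GLI1 label. These calls are from limma at an adjusted p under 0.05.

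These genes lie in clusters, are transcribed together as DNA is replicated, and give mRNAs that end in a conserved stem-loop in place of a poly(A) tail. The stem-loop binding protein SLBP and the U7 small nuclear ribonucleoprotein process the mRNAs, and the coactivator NPAT, phosphorylated by cyclin E and CDK2, drives their transcription at the start of S phase. Some members, among them H2BC21, H2AC6, H2BC12 and H1-2, are known to give polyadenylated transcripts as well, in cells that have stopped dividing.

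Of the 36 genes, 6 encode linker histone H1, 10 H2A, 17 H2B, 1 H3 and 2 H4. The HIST1 cluster on chromosome 6 holds 27 of them, and the HIST2 and HIST3 clusters on chromosome 1 hold 6 and 3. The present gene table has 93 genes that meet the naming rule, 72 of them protein-coding. Most H3 and H4 genes are so alike in sequence that their probe sets carry several gene names, and these shared probe sets are described separately at the end. Because of this likeness, even the probe sets with a single name may read close copies, and the values of single genes are uncertain to that extent.

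The 300 bases around the transcription starts show what these promoters share, and 31 of the 36 members had such a window in the RefSeq table of GRCh38.p14 (250 bases before the start and 50 from it onward). Windows are printed 5′ to 3′ for the members that were higher in both lines and had a window (H1-5, H2AC21 and H2BC13), for the one that was lower (H2BC21) and for the one whose level differed most between the lines (H2BC3). H1-5 is at chr6:27867539-27867838, H2AC21 at chr1:149887916-149888215, H2BC13 at chr6:27807880-27808179, H2BC21 at chr1:149886633-149886932 and H2BC3 at chr6:26043664-26043963, all on the minus strand. Capitals mark the letters TATAAA (the TATA box), CCAAT (bound by NF-Y), ATTTGCAT (the octamer, bound by the POU factor OCT1) and AAACACA (the H1 box), or their reverse complements.
H1-5: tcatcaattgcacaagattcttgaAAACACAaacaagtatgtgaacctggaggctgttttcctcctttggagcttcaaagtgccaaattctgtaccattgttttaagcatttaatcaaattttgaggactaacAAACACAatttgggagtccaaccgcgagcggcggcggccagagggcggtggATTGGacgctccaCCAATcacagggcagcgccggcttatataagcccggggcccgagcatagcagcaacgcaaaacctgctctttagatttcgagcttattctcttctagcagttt
H2AC21: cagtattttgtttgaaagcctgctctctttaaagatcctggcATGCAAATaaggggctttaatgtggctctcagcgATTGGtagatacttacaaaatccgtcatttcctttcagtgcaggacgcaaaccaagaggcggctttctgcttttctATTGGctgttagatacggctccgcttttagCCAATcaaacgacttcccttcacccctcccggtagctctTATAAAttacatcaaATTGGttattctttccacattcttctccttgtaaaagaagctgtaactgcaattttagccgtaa
H2BC13: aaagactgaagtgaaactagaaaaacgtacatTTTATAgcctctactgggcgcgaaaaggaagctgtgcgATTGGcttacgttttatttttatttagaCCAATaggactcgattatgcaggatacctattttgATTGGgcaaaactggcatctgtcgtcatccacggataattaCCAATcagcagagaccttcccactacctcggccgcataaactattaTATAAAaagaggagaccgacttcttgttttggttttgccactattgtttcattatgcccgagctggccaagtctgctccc
H2BC21: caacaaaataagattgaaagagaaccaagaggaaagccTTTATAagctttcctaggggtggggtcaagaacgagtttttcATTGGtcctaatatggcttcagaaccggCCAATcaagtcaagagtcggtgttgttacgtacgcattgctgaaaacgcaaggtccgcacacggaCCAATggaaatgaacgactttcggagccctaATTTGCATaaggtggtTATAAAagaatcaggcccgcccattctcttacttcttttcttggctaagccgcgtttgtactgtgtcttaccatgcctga
H2BC3: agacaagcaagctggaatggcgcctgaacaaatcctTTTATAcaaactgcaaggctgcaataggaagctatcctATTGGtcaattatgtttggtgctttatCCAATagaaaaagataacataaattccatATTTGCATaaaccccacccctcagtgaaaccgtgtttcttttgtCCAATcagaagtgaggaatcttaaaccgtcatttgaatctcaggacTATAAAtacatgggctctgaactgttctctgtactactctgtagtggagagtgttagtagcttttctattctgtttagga

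All 4 motifs were searched on both strands, and none of them contains the letters of another. The CCAAT letters occurred in 30 of the 31 members' windows (96.8%), against 34.6% of all 35116 promoters in the table, and the TATA letters in 21 (67.7%), against 11.5%. The octamer was in 11 of 15 H2B windows, 6 of 8 H2A windows and in 0 of 6 H1 windows, and in 1.77% of all promoters. The H1 box was in all 6 H1 windows and 1 H2A window, and in 5.64% of all promoters. In H2BC13, H2BC21 and H2BC3 the TATA letters began 30 bases before the start, and a second copy lay on the other strand at 218, 212 and 214 bases before it. Many H2A and H2B genes are transcribed away from each other from a shared stretch, so that 1 window can hold the elements of both genes and their shares are not independent. A match of letters is a description and says nothing of binding.

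In SW1990 a minority of the histone genes were higher in the arrays labelled GLI1, with the linker histones H1-6 and H1-5 at the largest differences, and the HIST2 gene H2BC21 was lower. Of the 36 genes, 6 were called higher (H1-5, H1-6, H2AC21, H2BC13, H2BC14 and H4C3) and 1 lower at an adjusted p under 0.05 from limma, and 29 did not pass. This is 16.7% higher and 2.78% lower, where 9.30% of all genes were called higher and 9.62% lower. The median log2 difference of the 36 genes was 0.16, with 26 of them above 0, against 0.01 for all genes. The 3 arrays of each label did not overlap for 14 genes with the arrays labelled GLI1 higher (38.9%, against 20.1% of all genes) and for 5 with them lower (13.9%, against 20.0%).

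H1-5, a linker histone that is abundant in dividing cells, stood at 6.50, 6.81 and 6.86 in the arrays labelled GLI1 and at 5.99, 5.75 and 5.96 in the arrays labelled control. The groups did not overlap, and the difference was 0.82 on the log2 scale (SE 0.14, adjusted p = 0.00177), or 1.77-fold. H1-6, the linker histone of the testis, was at 7.44, 6.80 and 6.47 against 6.03 ± 0.04 (SD, n = 3) in the control arrays. The 3 control arrays were nearly equal and the arrays labelled GLI1 ranged widely, with a difference of 0.88 (SE 0.25, adjusted p = 0.0340). Without array LIP the difference was 0.61 and did not pass.

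The other linker histones did not pass the test in SW1990. H1-2 (0.32, adjusted p = 0.21) and H1-3 (0.42, adjusted p = 0.15) lay above the control arrays in all 3 arrays labelled GLI1, whereas H1-1 (-0.00) and H1-4 (0.10) overlapped. H1-4 had the highest mean value of the H1 probe sets, between 13.29 and 13.42 in the arrays labelled GLI1 and between 13.17 and 13.30 in the control arrays.

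Among the core histones, H2AC21, an H2A gene of the HIST2 cluster, was at 9.43, 9.65 and 9.72 in the arrays labelled GLI1 and at 9.05, 8.99 and 8.96 in the control arrays. All 3 lay above the controls, by 0.60 (SE 0.12, adjusted p = 0.00395). The H2B gene H2BC14 was at 9.57, 9.80 and 9.81 against 9.19, 9.19 and 9.17 in the control arrays, a difference of 0.55 (SE 0.13, adjusted p = 0.0152). Another H2B gene, H2BC13, was at 8.44, 8.35 and 8.35 against 7.91 ± 0.08 (SD, n = 3) in the control arrays (0.47, SE 0.11, adjusted p = 0.0145). For both genes the groups were apart. H4C3, 1 of the 2 H4 genes with a probe set of their own, was at 11.82, 11.88 and 11.77 against 11.52, 11.59 and 11.52 in the control arrays (0.28, SE 0.09, adjusted p = 0.0463). Of the 12 fits that leave out 1 array each, H1-5 and H2AC21 were called in all 12, H2BC14 in 10, H2BC13 in 9, H1-6 in 7 and H4C3 in 3, while H2BC21, described next, was called in 9.

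H2BC21, an H2B gene with a polyadenylated transcript known from cells that do not divide, was the only member called lower. It was at 9.29, 9.40 and 9.46 in the arrays labelled GLI1 and at 10.14, 10.27 and 10.34 in the arrays labelled control. The groups were well apart, at a log2 difference of -0.87 (SE 0.22, adjusted p = 0.0163), or 1.82-fold lower. H2AC6, an H2A gene for which such transcripts are also known, was at 6.66, 6.95 and 7.18 against 7.24, 7.26 and 7.51 in the control arrays and did not pass (-0.41, adjusted p = 0.36). H1-2 and H2BC12, also named above for such transcripts, went the other way and did not pass by limma either (0.32, adjusted p = 0.21, and 0.16, adjusted p = 0.48).

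**Figure D1:**
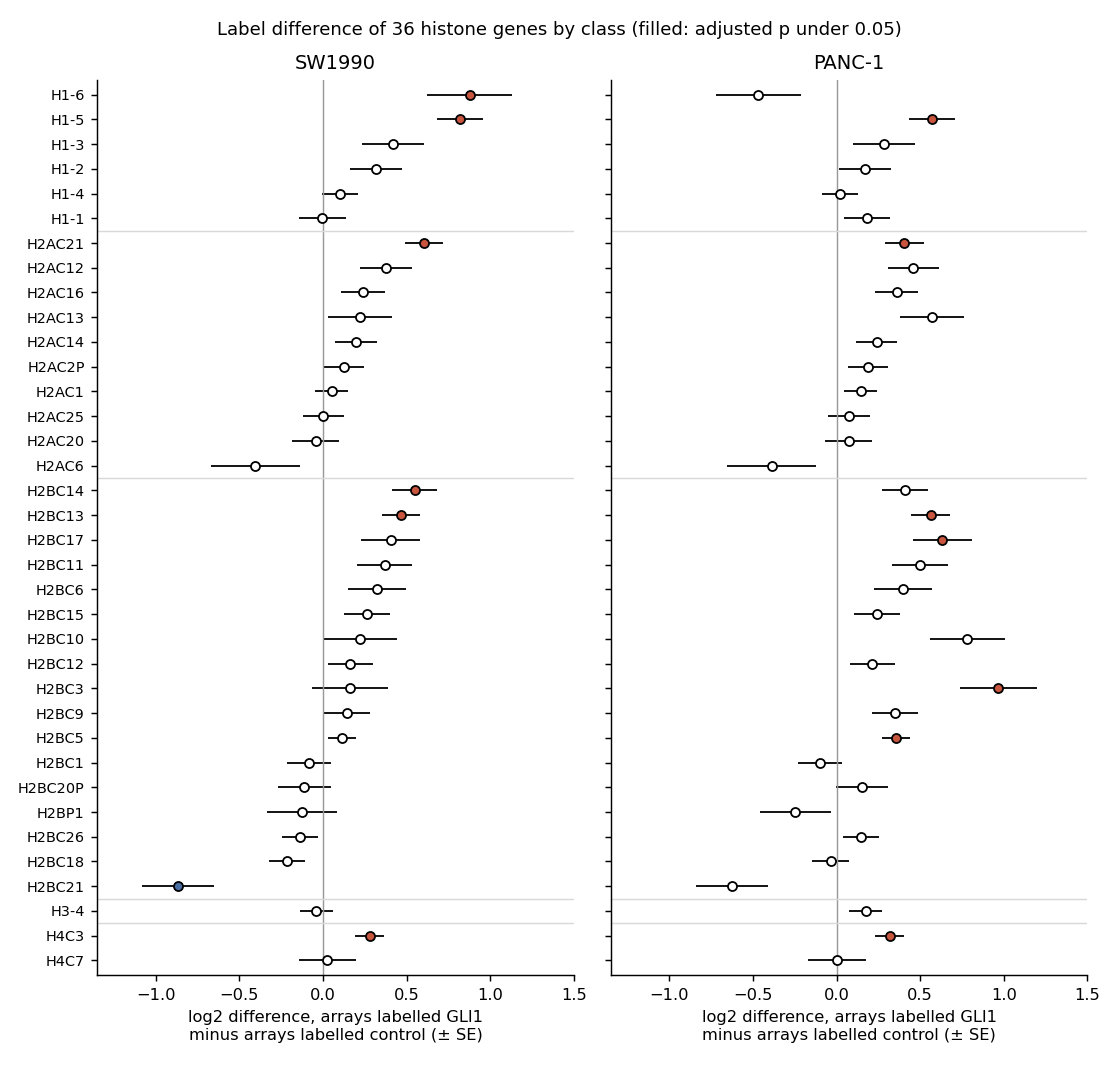
Log2 difference between the arrays labelled GLI1 and those labelled control (± SE from limma) for the 36 histone genes, ordered by class, with SW1990 on the left and PANC-1 on the right. Filled points passed an adjusted p under 0.05; 6 genes were higher and 1 lower in SW1990, and 7 were higher in PANC-1.

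In PANC-1 the largest difference was that of the H2B gene H2BC3. There 7 of the 36 genes were called higher (H1-5, H2AC21, H2BC13, H2BC17, H2BC3, H2BC5 and H4C3), or 19.4% against 4.39% of all genes. By limma 0 were called lower, against 5.25% of all genes, and 0 by the methods' t-test, unadjusted, against 7.68%. At an unadjusted limma p under 0.05, for which the share over all genes was not computed, 1 was lower. The median log2 difference was 0.23, with 30 genes above 0, against -0.00 for all genes. The groups did not overlap for 8 genes with the arrays labelled GLI1 higher (22.2%, against 10.9% of all genes) and for 1 with them lower (2.78%, against 11.6%).

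H2BC3, an H2B gene of the HIST1 cluster, was at 10.25, 10.50 and 10.53 in the arrays labelled GLI1 and at 8.96, 9.40 and 10.01 in the control arrays S10, S11 and S8. Every array labelled GLI1 lay above every control array, and the difference was 0.97 (SE 0.23, adjusted p = 0.0248), or 1.95-fold. H2BC17, also of HIST1, was at 11.29, 11.38 and 11.51 against 10.24, 10.87 and 11.18 in S10, S11 and S8 (0.63, SE 0.18, adjusted p = 0.0472). Without S10 its difference was 0.37 (adjusted p = 0.062), and of the 12 fits without 1 array it was called only in the one without S8. H2BC13 was at 8.51, 8.83 and 8.94 against 7.99, 8.23 and 8.36 (0.56, SE 0.11, adjusted p = 0.0136). In all 3 genes S10 was the lowest control array and S8 the highest.

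H1-5 was at 7.16, 7.47 and 7.50 in the arrays labelled GLI1 and at 6.56, 6.98 and 6.88 in S10, S11 and S8, with no overlap (0.57, SE 0.14, adjusted p = 0.0255). H2BC5, an H2B gene of HIST1, was at 8.05, 8.27 and 8.33 against 7.75, 7.93 and 7.90 in the control arrays (0.35, SE 0.08, adjusted p = 0.0254). H2AC21 was at 9.38, 9.82 and 9.70 against 9.07, 9.33 and 9.28 (0.41, SE 0.12, adjusted p = 0.0496). It lay just inside the threshold, and the H2B gene H2BC10 lay just outside it, at 6.62, 6.69 and 6.95 against 5.50, 5.90 and 6.51 in the control arrays (0.78, SE 0.22, adjusted p = 0.0504).

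H4C3 was at 11.85, 12.06 and 12.10 in the PANC-1 arrays labelled GLI1 and at 11.82, 11.74 and 11.50 in S10, S11 and S8. The groups were close but did not overlap, at 0.32 (SE 0.09, adjusted p = 0.0439). Of the 12 fits without 1 array, H1-5 and H2BC13 were called in 9, H2BC3 and H2BC5 in 8, H2AC21 in 3 and H4C3 in 1. H2BC21 had 9.52, 9.92 and 10.06 against 10.21, 10.10 and 11.06 in the control arrays, a difference of -0.63 that did not pass (adjusted p = 0.098). H1-6 had 5.78, 5.99 and 5.58 against 5.91, 6.03 and 6.81, with S8 far above the other control arrays and no call (-0.47, adjusted p = 0.31).

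**Figure D2:**
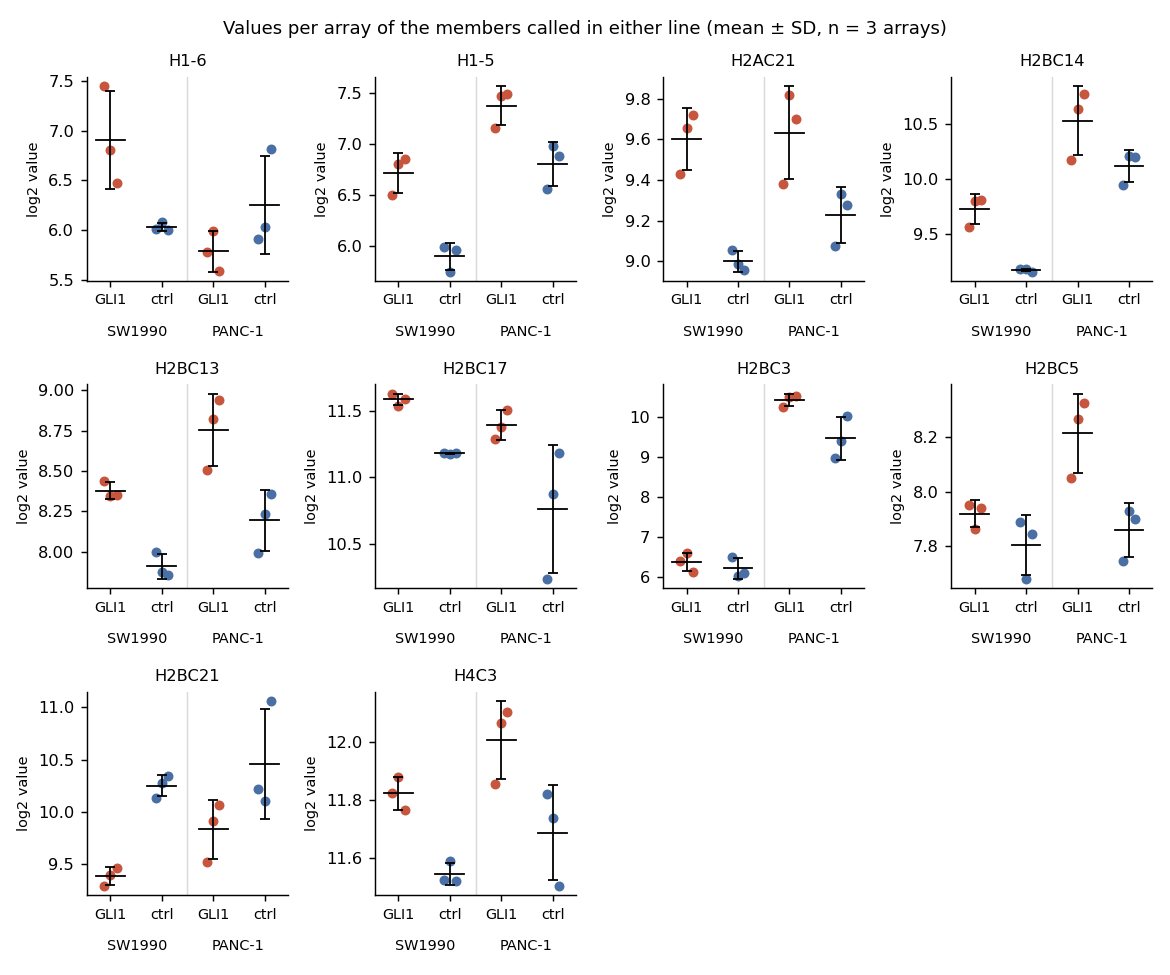
Normalized log2 value in each array of the 10 members called in either line, with the arrays labelled GLI1 left of those labelled control (ctrl) within each line, and the mean ± SD of 3 arrays in black. H1-5, H2AC21, H2BC13 and H4C3 were higher without overlap in both lines.

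The control arrays S8 and S10 bore on the PANC-1 values. The median deviation of the 36 genes from the mean of the 3 control arrays was 0.249 in S8 and -0.246 in S10, nearly the same amount in opposite directions. Beside S10 and S11 it had H2AC6 at 8.99, against 7.66 and 7.97, H2BC21 at 11.06, against 10.21 and 10.10, and the pseudogene H2BP1 at 6.71, against 5.67 and 5.77. The median of S8 over the 36 genes was 7.82, within the 7.66, 7.86 and 7.88 of the arrays labelled GLI1, while S10 and S11 had 7.44 and 7.63. Without S8, 14 members were called higher in PANC-1, or 38.9% against 13.3% of all genes in that fit. By limma 0 were lower, against 11% of all genes. At an unadjusted p under 0.05, for which the share over all genes was not computed, 1 was lower. Over all genes 2987 were called higher in that fit, against 984 with all arrays. Beyond H1-5, H2AC21, H2BC13, H2BC17, H2BC3 and H2BC5 these were the linker histone gene H1-3 (0.49), the H2A genes H2AC12 (0.57), H2AC13 (0.71) and H2AC16 (0.50), and the H2B genes H2BC10 (1.05), H2BC11 (0.69), H2BC6 (0.61) and H2BC9 (0.50). H4C3 was then at 0.23 and did not pass (adjusted p = 0.055). The count in PANC-1 also turned on other arrays. It was 12 without LIP (33.3%, against 4.04% of all genes) and 2 without S11 (5.56%, against 1.59%). It was 0 without LIP-1, LIP-2 or S10. In these last fits 1.20%, 1.37% and 1.10% of all genes were called higher.

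In SW1990, 3 members were higher on leaving out LIP, LIP-1, b or c, or 8.33% each time. Of all genes 6.89%, 6.59%, 5.63% and 8.12% were called higher in those fits. On leaving out LIP, b or c, 0 members were lower, against 7.72%, 6.87% and 7.8% of all genes. Each gene has 1 spread over all 4 groups, and without S8 the SE in SW1990 was smaller for 29 of the 36 members and larger for the other 7. In that fit 7 members were higher in SW1990 (19.4%, against 12.4% of all genes), H2BC17 being the added one, and 3 were lower (8.33%, against 12.6%), namely H2BC21, H2AC6 and the H2B gene H2BC18 (-0.22). Whether the 3 arrays of 1 label and line stem from separately grown cells is not stated. The p-values therefore speak for the scatter among the 12 arrays alone, pooled over the 4 groups, and that scatter may be technical. A limma p-value in PANC-1 thus rests in part on the scatter in SW1990. For H2BC17 the SD of the control arrays was 0.48 in PANC-1 and 0.0029 in SW1990. By the methods' t-test within PANC-1 its unadjusted p was 0.091.

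**Figure D3:**
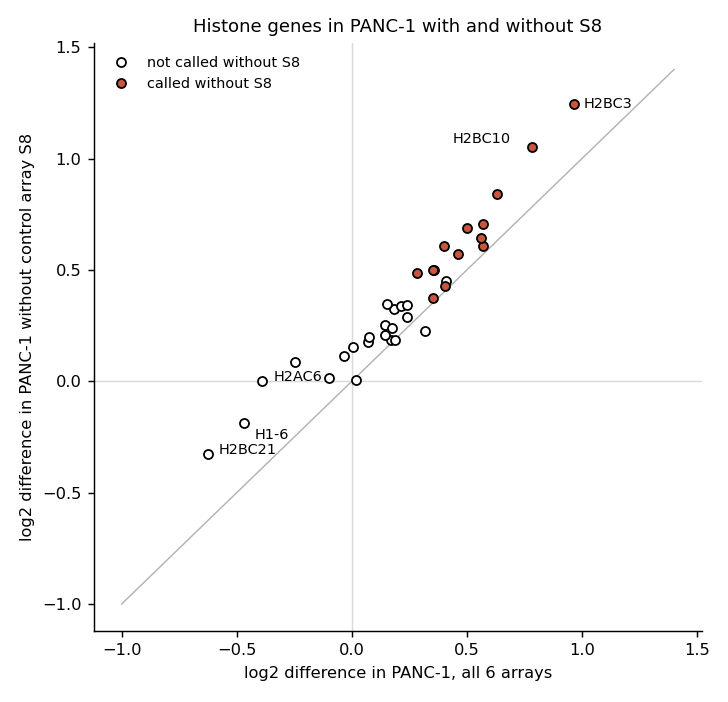
Log2 difference of the 36 genes in PANC-1 with all 6 arrays (x axis) and without the control array S8 (y axis), filled where the gene was called without S8. H2AC6 stood at -0.39 with S8 and at 0.00 without it, and H2BC10 at 0.78 and 1.05.

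Both lines shared 4 of the called members, H1-5, H2AC21, H2BC13 and H4C3, and 30 of the 36 genes had the same sign in the 2 lines. The corresponding shares over all genes were not computed. By limma the label difference of 0 members differed between PANC-1 and SW1990, against 2.39% of all genes. At an unadjusted p under 0.05, for which the share over all genes was not computed, 2 members passed. These were H1-6, with a PANC-1 minus SW1990 effect of -1.34 (SE 0.36, adjusted p = 0.0851), and H2BC3, with 0.81 (SE 0.32, adjusted p = 0.238). Without S8, 4 members differed (11.1%, against 15.2% of all genes in that fit), H1-6 at -1.06, H2BC3 at 1.08, H2BC10 at 0.83 and H2BC18 at 0.33. H2BC10 (0.56, adjusted p = 0.42), H2BC26 (0.28, adjusted p = 0.40) and H2BC5 (0.24, adjusted p = 0.35) followed by p in the fit with all arrays.

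By class, 2 of 6 H1 genes were called higher in SW1990 and 1 of 6 in PANC-1, with medians of 0.37 and 0.18. These are 33.3% and 16.7%, where 9.30% and 4.39% of all genes were called higher. For H2A, 1 of 10, or 10%, was higher in each line (0.16 and 0.21), in SW1990 near the 9.30% of all genes. For H2B, 2 of 17 were higher and 1 lower in SW1990, and 4 were higher in PANC-1 (0.16 and 0.35). In SW1990 the 2 higher are 11.8%, also near the share of all genes, and 9.62% of all genes were lower there. The 4 of 17 are 23.5%, near the 19.4% of all members called higher in PANC-1. H4C3 was the H4 gene called in both lines, while the other, H4C7, stood between 2.80 and 3.38 in every array and differed by 0.02 in SW1990 and 0.00 in PANC-1. The only H3 gene with its own probe set, the testis gene H3-4, had differences of -0.04 and 0.18 without a call. H2BC12, the H2B gene with the highest mean value, stood at 12.06 to 12.17 in the SW1990 arrays labelled GLI1 and at 11.78 to 12.08 in the SW1990 controls, and at 12.27 to 12.51 in the PANC-1 arrays labelled GLI1 and at 11.86 to 12.45 in the PANC-1 controls. It overlapped in both lines (0.16 and 0.21). The pseudogenes H2AC2P (0.13 and 0.19), H2BC20P (-0.11 and 0.15) and H2BP1 (-0.13 and -0.25) were not called, nor were the testis genes H2AC1 (0.05 and 0.14) and H2BC1 (-0.08 and -0.10). Among the members not called, the differences ran from -0.41 for H2AC6 to 0.42 for H1-3 in SW1990, and from -0.63 for H2BC21 to 0.78 for H2BC10 in PANC-1.

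By cluster, the 27 HIST1 genes had a median of 0.22 in SW1990 and 0.32 in PANC-1, with 5 and 6 called higher. These are 18.5% and 22.2%, against 9.30% and 4.39% of all genes. The 6 HIST2 genes had -0.12 and 0.02, with H2AC21 higher in both lines and H2BC21 lower in SW1990, and the 3 HIST3 genes had -0.04 and 0.14 with no call. The difference between clusters was not tested. Of the measured genes, 5 pairs of an H2A and an H2B gene start within 500 bases of each other. H2AC20, the H2A gene with the highest mean value, differed by -0.04 in SW1990 and 0.07 in PANC-1, beside -0.87 and -0.63 for its partner H2BC21. H2AC13 differed by 0.22 and 0.57 beside 0.47 and 0.56 for H2BC13, and H2AC14 by 0.20 and 0.24 beside 0.55 and 0.41 for H2BC14.

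**Figure D4:**
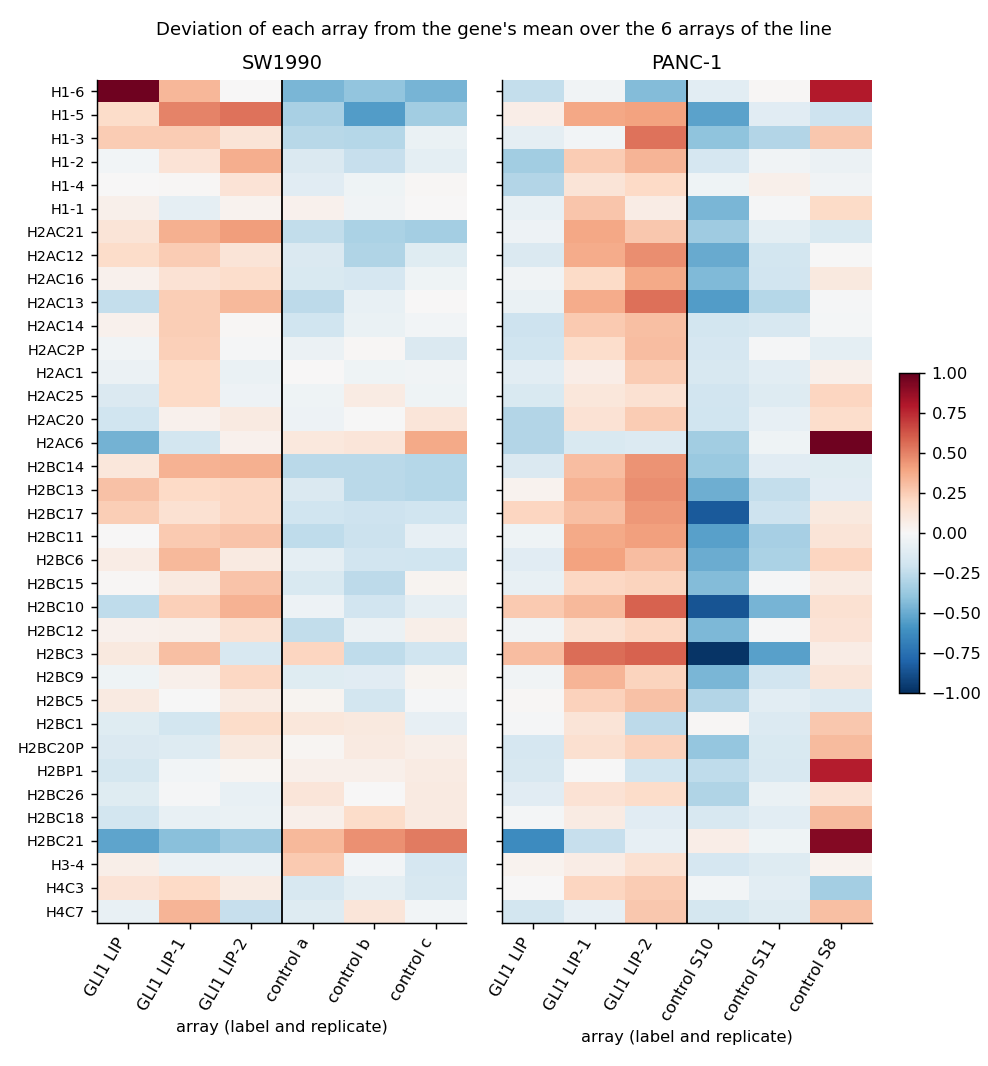
Deviation of each array from the gene's mean over the 6 arrays of its line, on the log2 scale, for the 36 genes in the order of the plot of label differences, with the arrays labelled GLI1 left of the control arrays. PANC-1 LIP-2 was the highest array of its line for 23 genes and S8 for 9, and H2AC6 and H2BC21 show the highest deviations of S8.

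Levels also differed between the lines, most of all for H2BC3. It stood at 10.25 to 10.53 in PANC-1 and 6.13 to 6.59 in SW1990 in the arrays labelled GLI1, a difference of 4.05 (SE 0.23, adjusted p = 8.84e-08), or 16.6-fold. In the control arrays it stood at 8.96 to 10.01 in PANC-1 and 6.03 to 6.50 in SW1990, a difference of 3.25 (SE 0.23, adjusted p = 5.46e-07), or 9.49-fold. The lines did not come near each other under either label.

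In the arrays labelled control, 5 members were higher in PANC-1 than in SW1990, against 18.7% of all genes, and 4 were lower, against 22.0%. Those higher were H2BC3, H2BC14 (0.94), H1-5 (0.90), H2AC6 (0.87) and H2BC10 (0.61), and those lower were the HIST3 genes H2BC26 (-0.53) and H2AC25 (-0.45), H2AC20 (-0.48) and H2BC9 (-0.40). In the arrays labelled GLI1, 9 were higher, against 18.1%, and 2 lower, against 21.0%, those lower being H1-6 (-1.12) and H2AC25 (-0.37). The members' shares were 13.9% higher and 11.1% lower under the control label, both below those of all genes, and 25.0% higher and 5.56% lower under the GLI1 label, above and below them.

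Probe sets annotated with several histone genes carried the rest of the family and named some members again. Of these, 37 name only genes that meet the rule, up to 14 genes each. Their signal belongs to the family and not to a single gene. H2BC10 and H2BC6 differed by 0.78 and 0.40 in PANC-1, while the 3 shared H2B probe sets that name both gave 0.39, 0.05 and 0.45. H2AC12, H2AC13 and H2AC16 differed there by 0.46, 0.57 and 0.36, while the shared H2A probe sets that name them gave 0.18, -0.03 and 0.59. No value of these was called. In a fit over all 25324 annotated probe sets, 10 of the 37 were higher and 3 lower in SW1990, or 27.0% and 8.11%, where 9.45% and 10.1% of all probe sets were. In PANC-1, 8 were higher and 0 lower, or 21.6% and 0%, where 4.12% and 5.08% were.

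H3 and H4 made up most of these calls and, with 12 and 13 of the 37, also most of these probe sets. Of 12 H3 probe sets 3 were higher in each line, with medians of 0.27 in SW1990 and 0.39 in PANC-1. Of 13 H4 probe sets 4 were higher in each line and 3 were lower in SW1990 (medians 0.16 and 0.18). An H4 probe set, the one with the largest rise in PANC-1, was at 8.78, 8.89 and 9.26 in the arrays labelled GLI1 and at 7.54, 7.80 and 7.88 in the control arrays, a difference of 1.24 (SE 0.12, adjusted p = 0.000645).

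For 3 shared probe sets the label difference itself differed between PANC-1 and SW1990, or 8.11% against 2.52% of all probe sets. One H4 probe set was at 11.41, 10.54 and 10.66 in the PANC-1 arrays labelled GLI1 and at 10.74, 11.18 and 11.83 in the PANC-1 controls, where the groups overlapped (-0.38, adjusted p = 0.51). In SW1990 it was at 7.02, 7.58 and 7.71 in the arrays labelled GLI1 and at 9.87, 9.77 and 9.83 in the controls (-2.38, SE 0.28, adjusted p = 0.000251), and the difference between the line effects was 2.01 (adjusted p = 0.0270). H4 probe sets thus moved in opposite directions in SW1990 although all 13 name the same 14 genes, H4C3 among them, and what each of them reads was not tested.

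An H3 probe set was at 6.40, 7.25 and 7.22 in the PANC-1 arrays labelled GLI1 and at 6.74, 6.69 and 7.19 in the PANC-1 controls, and the groups overlapped (0.09, adjusted p = 0.89). In SW1990 it was at 9.83, 9.71 and 9.59 in the arrays labelled GLI1 and at 8.17, 8.29 and 8.34 in the controls, well apart (1.44, SE 0.20, adjusted p = 0.000651). A further H4 probe set rose in both lines and more in PANC-1 (1.22, adjusted p = 0.000258) than in SW1990 (0.49, adjusted p = 0.00562).

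**Figure D5:**
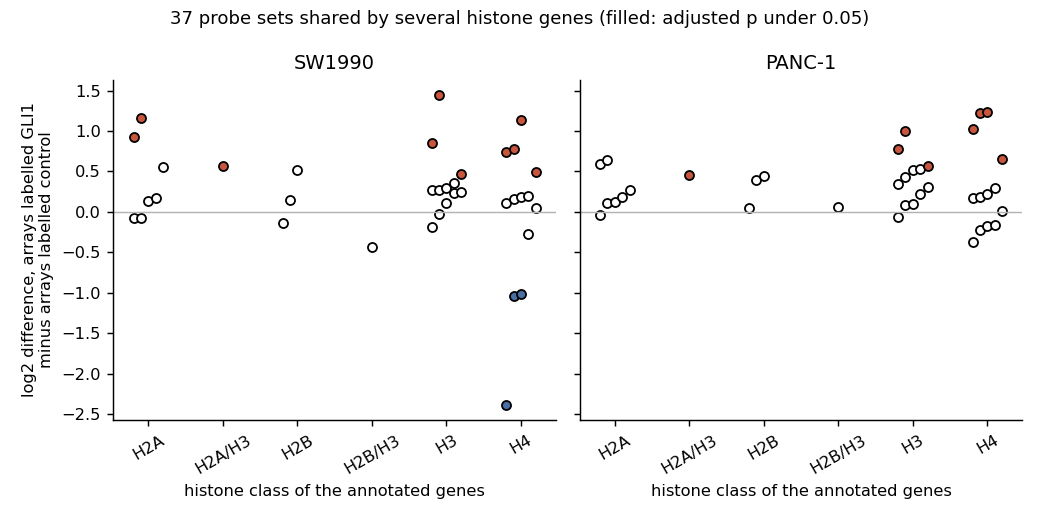
Log2 difference between the arrays labelled GLI1 and those labelled control for the 37 probe sets shared by several histone genes, by histone class, in SW1990 (left) and PANC-1 (right), filled where the adjusted p was under 0.05. The 3 H4 probe sets that were lower in SW1990 lie between -1.01 and -2.38.

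Genes of DNA replication were called more often than the histone genes, and in one direction. For this list and those below, 9.30% of all genes were higher and 9.62% lower in SW1990, and 4.39% and 5.25% in PANC-1. Of 33 measured S-phase genes 30 were higher in SW1990 (median 0.56) and 22 in PANC-1 (median 0.39), and 0 were lower in either line by limma, also at an unadjusted p under 0.05 or by the methods' t-test. Their mean log2 level was 9.56 to 9.68 in the SW1990 arrays labelled GLI1 and 9.01 to 9.13 in the SW1990 controls, and 9.33 to 9.51 in the PANC-1 arrays labelled GLI1 and 8.90 to 9.17 in the PANC-1 controls, S8 being the highest control. GINS2, a subunit of the replicative helicase, differed by 1.22 in SW1990 and 0.59 in PANC-1, and PRIM1, the catalytic primase subunit, by 0.66 and 0.81. A share of cells in S phase and the RNA made per cell cannot be told apart in bulk RNA, and the part of either in the histone values was not tested.

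Fewer of the factors that make histone mRNA were called. Of 28 measured genes of histone transcription and mRNA processing, 11 were higher and 1 lower in SW1990 (median 0.16), and 5 were higher and 3 lower in PANC-1 (median 0.08). CDK2, the kinase that acts with cyclin E on NPAT, was higher in both lines (0.52, adjusted p = 0.00131, and 0.29, adjusted p = 0.0473). SNRPD3, a core protein that the U7 particle shares with the spliceosome, was also higher in both (0.33 and 0.23), and the Sm proteins SNRPB (0.35) and SNRPE (0.40) were higher in SW1990. HINFP, a zinc finger activator of H4 genes, was at 8.59, 8.62 and 8.64 in the PANC-1 arrays labelled GLI1 and at 9.34, 9.25 and 8.92 in the controls, and was lower there (-0.55, adjusted p = 0.0055). ZNF473, a zinc finger protein of the U7-dependent processing machinery, was also lower in PANC-1 (-0.45, adjusted p = 0.0184), and FIP1L1, a cleavage and polyadenylation factor, in both lines (-0.34 each).

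NPAT and SLBP, named here for their roles after their values had been seen, were higher in SW1990 by 0.18 (adjusted p = 0.0437) and 0.16 (adjusted p = 0.0436) and did not pass in PANC-1 (0.10 and 0.13). Of 10 genes of histone mRNA decay, 1 was higher and 3 were lower in SW1990, and 2 were lower in PANC-1. TUT7, a terminal uridylyltransferase, was lower in both (-0.50 and -0.52), as was the kinase SMG1 (-0.49 and -0.34), TUT4 was lower in SW1990 (-0.34) and the DNA-dependent protein kinase PRKDC was higher there. PRKDC differed by 0.06 in PANC-1 and by 0.64 in SW1990, and the difference between the lines passed (-0.58, adjusted p = 0.0145).

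Of 25 histone chaperones 13 were higher and 3 lower in SW1990 (median 0.23), and 6 were higher and 1 lower in PANC-1 (median 0.15). SSRP1, a subunit of the FACT complex, was higher in both (0.58 and 0.37), as were CHAF1B (0.56 and 0.40) and CHAF1A (0.30 and 0.36), subunits of the complex that deposits new H3 and H4 behind the replication fork. ANP32E, which removes H2A.Z, was higher in SW1990 (0.46), and SPTY2D1 was lower in both lines (-0.73 and -0.66). Of 12 measured replacement histones, made outside S phase as well, 5 were higher in SW1990 and 2 in PANC-1. H2AX, the variant phosphorylated at DNA breaks, was at 11.70, 11.78 and 11.73 in the SW1990 arrays labelled GLI1 and at 10.97, 11.05 and 11.15 in the SW1990 controls (0.68, adjusted p = 0.00999), and differed by the same 0.68 in PANC-1 (adjusted p = 0.0210). H2AZ1 (0.36 and 0.39) was also higher in both lines, and H2AZ2 (0.65), the centromeric CENPA (0.64) and MACROH2A1 (0.18) in SW1990.

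Of the markers of other cells, 1 of 8 measured was higher in each line. These were the trypsinogen gene PRSS1 in SW1990 (0.74) and the collagen gene COL1A1 in PANC-1 (0.97), and the mean level of the list was 5.88 to 6.08 in the SW1990 arrays labelled GLI1, about 5.99 in each of the SW1990 controls, 6.17 to 6.23 in the PANC-1 arrays labelled GLI1 and 6.18 to 6.26 in the PANC-1 controls. The epithelial marker KRT19 was higher in PANC-1 (0.60), where EPCAM and KRT8 were highest in S8 among the controls, at 7.53 and 11.81. The part of these in the histone values was not tested.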

How the data were processed

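Deposited by the authors were the log2 values of 70523 probe sets per array, background-corrected and normalized with tools not given in the sources used here. Biotin and Trizol stand in the labels, and the probe sets match the Affymetrix Human Transcriptome Array, while the methods name Agilent slides, Cyanine-3 and mirVana. The array medians ran from 5.863 to 5.996, so quantile normalization was applied. Probe sets with 1 gene symbol, 23781 in all, gave 22411 genes, the probe set of highest mean standing for each of 528 genes with several (H2BC11 among the members), and dim genes were not filtered. Groups came from the labels and replicate names from the titles, and the name LIP is not explained in the sources used here.

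R 4.3.3 with limma 3.58.1 (lmFit, eBayes) fitted all genes at once, with a mean for each of 4 groups, which leaves 8 residual degrees of freedom. The threshold was an adjusted p under 0.05 by the Benjamini-Hochberg method over all genes. Precision is limited by the number of arrays. The fit was tested on data simulated with the same spread of a gene in every group. That test cannot show how an array that stands apart, such as S8, bears on the calls. Named members are all H1 genes, the 6 called members of smallest adjusted p in each line and direction, the highest of each class by mean value, and the 5 of smallest p for the difference between lines, and in other lists the 4 called genes of smallest adjusted p per line. Other names in the text were chosen after their values were seen. The members, lists and rules were chosen with earlier results of these data known.

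Alternatives were the values as deposited, median centring, the mean of a gene's probe sets, leaving out the 30% dimmest genes (28 members remained), limma-trend with robust eBayes, array weights, each line alone, the methods' t-test, an adjusted p under 0.01, control arrays a and b of SW1990 averaged, and each array left out. Added after seeing the data were members by present symbol only, members without the 3 pseudogenes, and the alternatives of the comparison between lines. Python 3.11.15, pandas 2.3.3 and matplotlib 3.10.9 served for tables and plots.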

Additional observations from a re-analysis of the deposited data

Results flagged for a closer look

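Of the histone probe sets, 3 that carry several gene names had a label difference that itself differed between the lines by the interaction test. The PANC-1 minus SW1990 effect was 0.73 (adjusted p = 0.0253) for an H4 probe set that was higher in both lines and -1.36 (adjusted p = 0.0332) for an H3 probe set that was higher in SW1990. It was 2.01 (adjusted p = 0.0270) for the H4 probe set that was lower in SW1990. Of the 36 single genes 0 passed this limma test, with 2 at an unadjusted p under 0.05, for which the share over all genes was not computed. Groups of 3 arrays are too small to test for a single array that lies apart.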

How the results depend on the processing

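With array weights 15 members were higher and 2 lower in SW1990, 26 were higher in PANC-1 and 8 differed between the lines, or 41.7%, 5.56%, 72.2% and 22.2%, against 18.1%, 16.3%, 22.5% and 26.9% of all genes. With each line fitted alone 12 were higher and 2 lower in SW1990, or 33.3% and 5.56%, against 11.9% and 12.4% of all genes. In PANC-1 0 were higher, where only 16 of all 22411 genes were. The methods' t-test, unadjusted, gave 12 higher and 3 lower in SW1990 and 4 higher in PANC-1. These are 33.3%, 8.33% and 11.1% of the members, against 15.8%, 16% and 7.01% of all genes. After Benjamini-Hochberg adjustment it gave 0 higher in PANC-1, when 0 of all genes passed there. At an adjusted p under 0.01, 2 were higher and 0 lower in SW1990 (5.56% and 0%, against 4.61% and 5.51% of all genes). In PANC-1 0 were higher, against 0.714%. Arrays a and b differed over all genes with an SD of 0.0994, the smallest of any pair within a group. Averaging these control arrays left 4 higher and 1 lower in SW1990 (11.1% and 2.78%, against 5.61% and 6.92% of all genes). It left 4 higher in PANC-1 (11.1%, against 3.12%). Centring on the array median left 2 members lower in PANC-1 than in SW1990 in the arrays labelled control and 1 in those labelled GLI1. These are 5.56% and 2.78%, against 18.1% and 17.4% of all genes. The causes of these moves were not tested. On leaving out each array, the count ran from 3 to 8 higher and 0 to 3 lower in SW1990, 0 to 14 higher and 0 to 0 lower in PANC-1, and 0 to 4 for the difference between the lines. In SW1990 these are 8.33% to 22.2% and 0% to 8.33%, against 5.5% to 12.4% and 6.87% to 12.6% of all genes. In PANC-1 they are 0% to 38.9% and 0%, against 1.1% to 13.3% and 2.13% to 11%. For the difference they are 0% to 11.1%, against 1.02% to 15.2%. Between the lines the count ran from 3 to 9 higher and 1 to 7 lower under the control label, and from 5 to 13 higher and 1 to 4 lower under the GLI1 label. Under the control label these are 8.33% to 25% and 2.78% to 19.4%, against 16.2% to 19.8% and 19.3% to 23.4% of all genes. Under the GLI1 label they are 13.9% to 36.1% and 2.78% to 11.1%, against 15.6% to 20.5% and 18.3% to 23.5%. The median log2 difference ran from 0.14 to 0.21 in SW1990 and from 0.14 to 0.36 in PANC-1. With the values as deposited, 2796 genes were higher and 1606 lower in SW1990, against 2084 and 2157 after quantile normalization, and the members' counts there stayed at 6 and 1. No member called in a line changed sign there under any of these alternatives, while 7 members without a call in SW1990 and 9 without one in PANC-1 did in at least 1, among those of PANC-1 H2AC6 (-0.39, and 0.00 without S8), H2BP1 (-0.25 and 0.09) and H2BC18 (-0.04 and 0.11). No paired analysis was possible because the arrays labelled GLI1 and control of a line share no replicate names.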
